A study of Mus musculus with 89 samples.

Results

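The 33 genes described here encode glucose transporters, the enzymes of glycolysis and products of the transcriptional response to low oxygen. They were chosen by symbol from a list of glycolysis and hypoxia response genes, and all 33 had a row among the 26276 named genes of the RNA-seq count table. Of these, 20 were the transporter and enzyme genes of the path from glucose uptake to lactate, and 13 were hypoxia response genes. The libraries came from V6.5 mouse embryonic stem cells grown in 2i and LIF, with 3 libraries named dTAG and 3 named Control. Every library, the controls included, carried H2afz-FKBP-V, in which the gene for the histone variant H2A.Z.1 bears an FKBP-V tag. A dTAG compound bound to such a tag directs degradation of the tagged protein. The labels give neither the dTAG compound, its dose or its exposure time for the RNA libraries, nor whether the tagged cells were a single clone or the replicates separate cultures. The p-values therefore speak to the spread between libraries, which may be technical. The remaining 83 of the 89 samples of the series, which profile chromatin and RNA polymerase II, were not analysed here.

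Glycolysis converts glucose to pyruvate in the cytosol and yields ATP without oxygen. Lactate dehydrogenase then reduces pyruvate to lactate, which restores the NAD+ that the pathway consumes. Most steps can be catalysed by several isozymes, encoded by separate genes and used to different extents in different tissues. The hypoxia-inducible factors (HIFs) are transcription factors whose alpha subunits are hydroxylated by the EGLN enzymes when oxygen is present and are then degraded. When oxygen is low they bind DNA at a short core motif and raise transcription of many glycolytic genes and of genes for vessel growth, acid balance and mitochondrial removal. Pluripotent stem cells are known for a high rate of glycolysis.

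The dTAG libraries did not form a uniform group. Counts per library numbered 13214351, 2284068 and 2121183 in dTAG replicates 1, 2 and 3, against 14427884 to 16033011 in the Control libraries. Rows without a gene name took 2.33%, 6.67% and 14.6% of the counts in dTAG replicates 1, 2 and 3, and 2.20% to 2.37% in the controls. Of 1455 sensory receptor genes (olfactory and vomeronasal), which embryonic stem cells are not known to use, 23.4%, 71.4% and 97.0% had at least 1 count in dTAG replicates 1, 2 and 3, and 10.9% to 18.0% had one in the controls. In counts per 1000000 (CPM), markers of naive embryonic stem cells (10 of 10 in the table) summed to 3072, 1864 and 591 CPM in dTAG replicates 1, 2 and 3, and to 2844 to 3013 CPM in the controls. The defining markers Pou5f1, Nanog and Sox2 had counts in all 6 libraries. The 6 skeletal muscle markers summed to 16.6, 144 and 370.2 CPM in dTAG replicates 1, 2 and 3 and to 8.56 to 10.9 CPM in the controls. The 10 feeder fibroblast markers summed to 21.6, 123 and 373 CPM in the same dTAG libraries and to 22.7 to 32.7 CPM in the controls, where 3 or 4 of them were at 0, among them Col3a1 and S100a4 in all 3. These values moved with the results below in dTAG replicates 2 and 3, and their part in those results was not tested. For that reason each comparison is given for all 3 dTAG libraries and for dTAG replicate 1 alone, whose 23.4% of receptor genes also lay above the controls.

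CPM values are per 1000000 counts of named genes. They are not divided by transcript length, so a value is compared between libraries for 1 gene and not between genes. They are also relative to the total of each library, and fewer cells with a transcript cannot be told apart from less of it per cell. With 3 libraries a side, the smallest p that an exact two-sided permutation test can give is 0.1.

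Together the 20 transporter and enzyme genes held 5702, 4020 and 904 CPM in dTAG replicates 1, 2 and 3, against 6014, 5879 and 5946 CPM in the Control libraries. The sum was lower in all 3 dTAG libraries, at 95.9%, 67.6% and 15.2% of the control mean, and the dTAG libraries differed far more among themselves than the controls did. It averaged 3542 ± 2434 CPM in dTAG libraries and 5946 ± 67.7 CPM in Control libraries (SD, n = 3 each; exact permutation p = 0.1, the smallest possible). The 13 hypoxia response genes summed to 522, 508 and 617 CPM in dTAG replicates 1, 2 and 3, against 553, 552 and 554 CPM in the controls. Their dTAG sums lay on both sides of the controls, with means of 549 ± 59.2 and 553 ± 1.11 CPM in dTAG and Control libraries (SD, n = 3 each; exact permutation p = 1). That order depended on scaling, since with TMM-scaled libraries the hypoxia sums were 662, 413 and 267 CPM in dTAG replicates 1, 2 and 3 against 687, 743 and 739 CPM in the controls, so that every dTAG sum lay below every control (exact permutation p = 0.1).

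**Figure D1:**
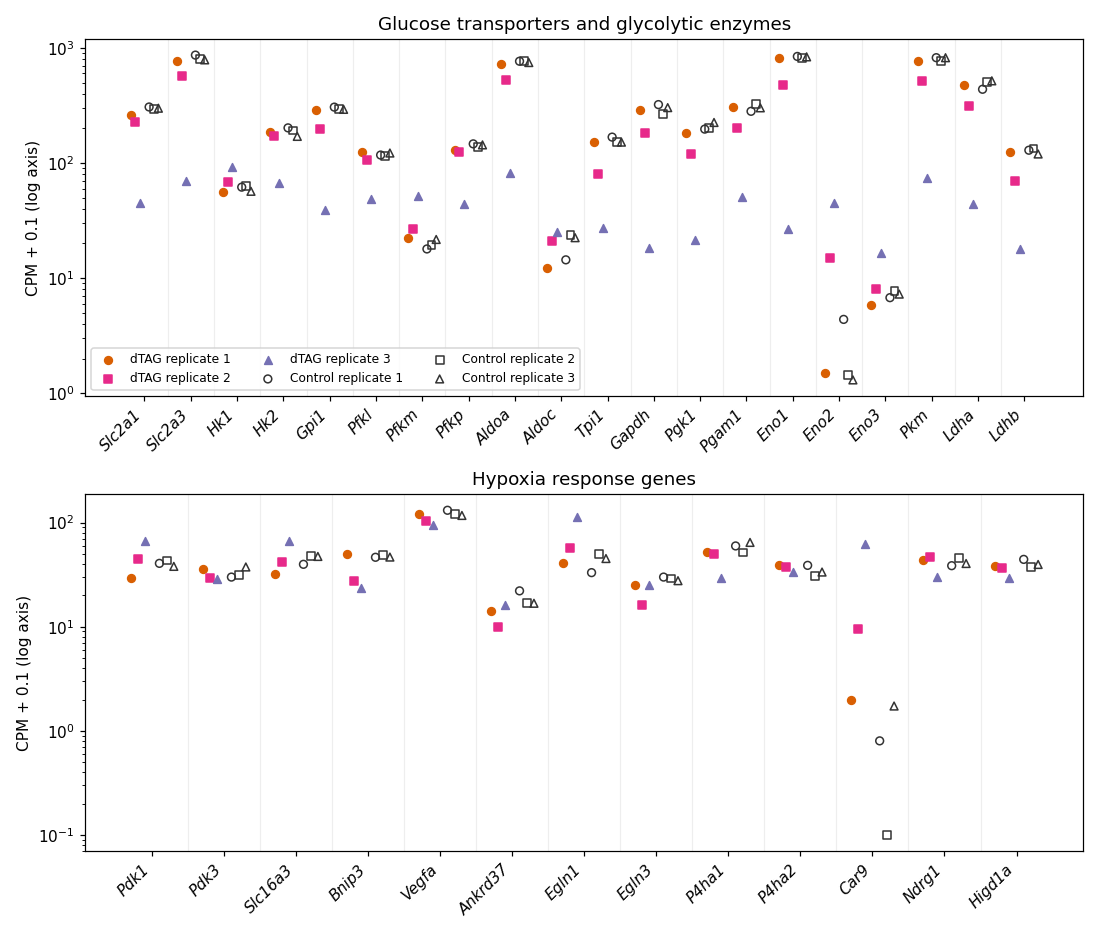
Level of each member (CPM + 0.1, log axis) in the 3 dTAG libraries (filled symbols) and the 3 Control libraries (open symbols), with transporters and enzymes above and hypoxia response genes below. Most enzyme genes of dTAG replicate 1 sit beside the controls, those of dTAG replicate 3 lie well below them, and Eno2 and Car9 of dTAG replicate 3 lie above them at 44.7 and 61.8 CPM.

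None of the 33 genes passed the test of the 3 dTAG against the 3 Control libraries. At an adjusted p under 0.05 in edgeR's quasi-likelihood test (Benjamini-Hochberg), the 18116 genes tested included 0 higher (0%) and 0 lower (0%). At an unadjusted p under 0.05, 1 member was higher, beside 22.6% of all genes tested, and 2 were lower, beside 0.607% of all genes. With limma-voom 0 genes passed, and with DESeq2 3180 genes were higher (17.6%) and 25 lower (0.138%), among them 1 member, Car9. Car9 was the 1 member that passed the filter on low counts only through the dTAG libraries. The members' log2 fold changes had a median of -0.93, against 0.16 for all genes tested, and 31 of 33 were below 0, against 46.1% of all genes. These counts depend on scaling. With plain library totals 24 of 33 members and 25.4% of all genes were below 0, and the medians were -0.41 and 1.11. All genes tested differ from the members in level. A control mean of at least 10 CPM was reached by 30 of the 33 members and 8876 of the 18116 genes. In the TMM-scaled fit the 10 naive stem cell markers had a median of -0.94, with 10 below 0. The 7 pentose phosphate genes had one of -0.73, with 7 below 0. The 5 PFKFB and TIGAR genes, described below, had one of 0.27, with 2 below 0.

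Against the controls, dTAG replicate 1 alone also gave no call among the members. In this edgeR fit, in which the lone dTAG library is taken to vary as the controls do, 11 of 18143 genes were higher (0.0606%) and 5 lower (0.0276%), none of them a member. At an unadjusted p under 0.05, 6 members were lower, beside 2.51% of all genes tested, and 0 were higher, beside 3.22% of all genes. The median log2 fold change was -0.15 over the members and -0.02 over all genes, with 27 of 33 members and 51.9% of all genes below 0. With plain library totals the medians were -0.06 and 0.07, and 25 members and 42.2% of all genes were below 0. The transporter and enzyme genes had a median of -0.14 (18 of 20 below 0) and the hypoxia response genes one of -0.16 (9 of 13 below 0). In CPM, 13 members lay below every control, where 17% of all genes did, and 5 lay above every control, where 33.8% of all genes did. Of the 30 members with a control mean of at least 10 CPM, 12 lay below and 4 above, beside 18.3% and 28.8% of all such genes. With TMM-scaled libraries 21 members were below and 1 above, beside 23.5% and 27.2% of all genes, and of the 30 members 20 were below and 0 above, beside 29.4% and 18.3% of such genes.

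Promoter sequence is shown for the 5 members with the smallest p among those lower in dTAG replicate 1, namely Slc2a1, Slc16a3, Pdk1, Aldoc and Pgk1. The HIF core motif was searched as ACGTG and GCGTG on both strands of the 250 bases before the gene start, in RefSeq windows of GRCm38.p6. These windows were chr4:119108495-119108744, chr11:120948817-120949066, chr2:71872974-71873223, chr11:78322823-78323072 and chrX:106186850-106187099 for Slc2a1, Slc16a3, Pdk1, Aldoc and Pgk1, all on the plus strand. For Pdk1 and Aldoc the first of 2 windows is given. Capitals mark the motif, which reads CACGT or CACGC where it lies on the other strand.
Slc2a1: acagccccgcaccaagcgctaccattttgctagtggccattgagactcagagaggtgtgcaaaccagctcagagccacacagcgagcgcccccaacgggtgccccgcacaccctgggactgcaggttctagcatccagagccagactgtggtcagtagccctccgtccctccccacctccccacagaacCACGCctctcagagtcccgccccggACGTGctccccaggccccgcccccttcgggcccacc
Slc16a3: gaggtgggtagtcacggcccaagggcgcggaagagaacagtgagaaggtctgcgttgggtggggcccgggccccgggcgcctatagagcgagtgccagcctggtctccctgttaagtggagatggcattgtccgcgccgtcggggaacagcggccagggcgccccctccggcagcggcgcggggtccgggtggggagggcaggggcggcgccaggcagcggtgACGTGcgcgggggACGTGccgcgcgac
Pdk1: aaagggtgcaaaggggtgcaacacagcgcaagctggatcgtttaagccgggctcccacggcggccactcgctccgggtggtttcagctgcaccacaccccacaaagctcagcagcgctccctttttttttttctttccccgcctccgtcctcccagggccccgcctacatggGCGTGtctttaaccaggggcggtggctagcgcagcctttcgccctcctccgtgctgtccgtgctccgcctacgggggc
Aldoc: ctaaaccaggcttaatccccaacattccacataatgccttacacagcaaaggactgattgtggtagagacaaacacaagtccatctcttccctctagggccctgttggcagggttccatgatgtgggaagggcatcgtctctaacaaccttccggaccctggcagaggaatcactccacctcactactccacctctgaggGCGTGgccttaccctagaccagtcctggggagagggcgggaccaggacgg
Pgk1: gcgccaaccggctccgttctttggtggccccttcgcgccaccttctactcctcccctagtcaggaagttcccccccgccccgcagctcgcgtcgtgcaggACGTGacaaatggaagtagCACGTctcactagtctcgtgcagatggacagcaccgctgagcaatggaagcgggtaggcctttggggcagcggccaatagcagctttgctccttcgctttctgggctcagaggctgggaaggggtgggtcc
The match nearest the gene start begins 36 bases before it in Slc2a1, 14 in Slc16a3, 78 in Pdk1, 50 in Aldoc and 131 in Pgk1. The 5 windows held 0 matches inside the E-box CACGTG, a related motif that overlaps the searched one.

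Windows were found for 31 members (not for Slc2a3 and Ndrg1), and 28 of these genes had the motif in at least 1 of them (90.3%). The same held for 56.7% of the genes tested that had a window and for 41.5% of all genes with one. By window, the motif stood in 35 of 44 member windows (79.5%), in 51.6% of the windows of all genes tested and in 38.6% of all RefSeq windows. The ACGTG form alone stood in 45.5% of member windows, against 20.2% for genes tested and 16.6% for all. The 3 members whose windows lacked the motif were Gpi1, Tpi1 and Eno2. Log2 fold changes in dTAG replicate 1 had a median of -0.15 over the 28 genes with the motif and -0.12 over the 3 without it. Many of these genes are textbook HIF targets, so the share of windows with the motif describes the list. A match says nothing on whether a factor was bound.

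Both glucose transporter genes were lower in every dTAG library than in every control, without passing the edgeR test. Slc2a1, which encodes the widely used transporter GLUT1, had 262, 227 and 45.2 CPM in dTAG replicates 1, 2 and 3, against 307, 295 and 299 CPM in the controls. Slc2a3, encoding the high-affinity transporter GLUT3, had 768, 571 and 69.5 CPM in dTAG libraries, against 866, 797 and 787 CPM in Control libraries. In both genes the groups did not overlap, and dTAG replicate 1 was the closest to the controls. Members with all dTAG libraries below all controls numbered 8, beside 3.22% of all genes tested and 6.19% of those with a control mean of at least 10 CPM. They were Slc2a1, Slc2a3, Gpi1, Pfkp, Aldoa, Pgk1, Ankrd37 and Egln3. With TMM-scaled libraries the number was 20, beside 10% of all genes, and 19 of the 30 members with at least 10 CPM, beside 18.4% of such genes. The log2 fold change of Slc2a1 in dTAG replicate 1 was -0.28 (SE 0.11, adjusted p = 0.69), the smallest p among the members of that comparison.

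The hexokinases, which trap glucose in the cell as glucose-6-phosphate, lay on opposite sides of the controls in dTAG replicate 3. Hk1, the form of most tissues, had 56.2, 69.0 and 92.1 CPM in dTAG replicates 1, 2 and 3, against 61.6, 62.9 and 56.7 CPM in the controls. Hk2, the inducible form and a known HIF target, had 187, 171 and 66.8 CPM in dTAG libraries, against 202, 192 and 170.2 CPM in the controls. In dTAG replicate 1 Hk2 lay within the range of the controls and Hk1 just below it. Gpi1, which turns glucose-6-phosphate into fructose-6-phosphate, had 289.7, 198 and 39.2 CPM in dTAG libraries and 306, 294 and 292 CPM in Control libraries. Its value in dTAG replicate 1 was below the lowest control by less than the controls' own range.

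The phosphofructokinases, which catalyse the committed step, showed a different order in each subunit gene. Pfkl, the liver-type subunit, had 126, 107 and 48.6 CPM in dTAG replicates 1, 2 and 3, against 117, 115 and 122 CPM in the controls. Pfkm, the muscle-type subunit, had 22.2, 26.7 and 51.3 CPM in dTAG libraries, against 17.8, 19.2 and 21.6 CPM in the controls. Pfkp, the platelet-type subunit, had 130.5, 125 and 43.6 CPM in dTAG libraries, against 147, 137 and 144 CPM in the controls. Pfkm and Car9 were the 2 members with all dTAG libraries above all controls, where 23.9% of all genes tested were (10.7% of those with a control mean of at least 10 CPM). Neither passed the edgeR test, and Pfkm in dTAG replicate 1 exceeded the highest control by less than the controls' own range. With TMM scaling 1 member lay above, beside 17.8% of all genes, and 0 of those with at least 10 CPM, beside 2.95%. The 3-library log2 fold change of Pfkm was -0.09 (SE 0.31, adjusted p = 0.844). In dTAG replicate 1 the log2 fold changes of Pfkl and Pfkm were 0.01 (SE 0.14, adjusted p = 0.999) and 0.10 (SE 0.30, adjusted p = 0.998). For Pfkl the value was -0.03 without Control replicate 1.

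In the aldolase step, which splits the sugar phosphate into triose phosphates, the 2 genes differed. Aldoa had 718, 525 and 82.2 CPM in dTAG replicates 1, 2 and 3, against 766, 767 and 746 CPM in the controls. Aldoc, the brain-type form, had 12.1, 21.1 and 24.8 CPM in dTAG libraries, against 14.3, 23.6 and 22.4 CPM in the controls. All dTAG values of Aldoa lay below the controls, whereas for Aldoc only dTAG replicate 1 did. The Aldoc log2 fold change was -0.83 in dTAG replicate 1 (SE 0.35, adjusted p = 0.721) and -0.88 over the 3 dTAG libraries (SE 0.38, adjusted p = 0.213). Reads of Aldoa may be shared with its retrocopies Aldoart1 and Aldoart2, whose rows reached at most 29.5 and 44.1 CPM in any library.

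The genes of the later steps, in which ATP and NADH are made, were near their control levels in dTAG replicate 1 and below them in the other dTAG libraries. Tpi1, which interconverts the triose phosphates, had 153, 80.2 and 27.0 CPM in dTAG replicates 1, 2 and 3, against 168, 152 and 152 CPM in the controls. Gapdh, which makes NADH, had 291, 184 and 18.2 CPM in dTAG libraries, against 322, 268 and 303 CPM in the controls. For both, dTAG replicate 1 lay within the controls' range. Pgk1, which makes the first ATP, had 182, 121 and 21.5 CPM in dTAG libraries, against 197, 202 and 225 CPM in Control libraries. Pgam1, which moves the phosphate group, had 308, 201 and 50.8 CPM in dTAG libraries, against 281, 325 and 302 CPM in the controls. Of these genes, Pgk1 alone had dTAG replicate 1 below all controls, with a log2 fold change of -0.28 (SE 0.13, adjusted p = 0.805).

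Enolase, which forms phosphoenolpyruvate, showed a wide spread between libraries. Eno1, the form of most tissues, had 819, 473 and 26.5 CPM in dTAG replicates 1, 2 and 3, against 843, 814 and 836 CPM in the controls. Eno2, the neuronal form, had 1.39, 15.0 and 44.7 CPM in dTAG libraries, against 4.28, 1.34 and 1.21 CPM in the controls. Eno3, the muscle form, had 5.73, 7.98 and 16.6 CPM in dTAG libraries, against 6.67, 7.60 and 7.17 CPM in the controls. Eno1 thus lay below and Eno2 above the controls in dTAG replicates 2 and 3, while in dTAG replicate 1 both lay within the controls. The Eno2 log2 fold change was 1.91 over the 3 dTAG libraries (SE 0.94, adjusted p = 0.27) and -0.76 in dTAG replicate 1 (SE 1.07, adjusted p = 0.992). The 3-library value was 1.22 without dTAG replicate 3, 0.75 with limma-voom and 3.14 with library totals, none of them past the threshold. Beside it, 6 neuron markers summed to 50.7, 86.3 and 239 CPM in dTAG replicates 1, 2 and 3 and to 54.1 to 58.3 CPM in the controls, with Snap25 at 0 in all 3 controls. The marker Stmn2, the largest part of the control sums, went the other way, at 26.5, 28.1 and 14.3 CPM in dTAG replicates 1, 2 and 3 against 40.6, 31.2 and 35.0 CPM in the controls. Their part in the Eno2 values was not tested. A second row, Eno1b, a retrocopy of Eno1, held 1057, 641 and 29.8 CPM in dTAG libraries and 1030, 1041 and 1097 CPM in the controls. How reads were divided between Eno1 and Eno1b is not given in the sources used here, so the Eno1 level is uncertain.

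Pyruvate and lactate genes followed the same order of libraries. Pkm, the pyruvate kinase of most tissues, had 769, 515 and 73.9 CPM in dTAG replicates 1, 2 and 3, against 822, 769 and 822 CPM in the controls. Ldha, the lactate dehydrogenase subunit that favours lactate formation, had 477, 314 and 44.1 CPM in dTAG libraries, against 437, 504 and 517 CPM in the controls. Ldhb, the heart-type subunit, had 124, 69.4 and 17.7 CPM in dTAG libraries, against 129, 134 and 119.7 CPM in the controls. In dTAG replicate 1 all 3 genes lay within the range of the controls, and in dTAG replicates 2 and 3 all lay below it.

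**Figure D2:**
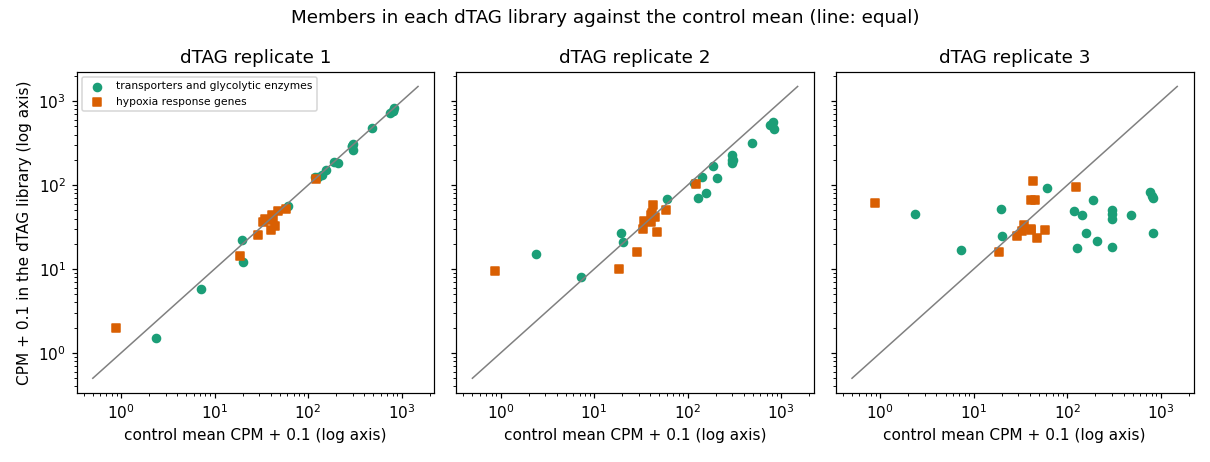
Each dTAG library (y axis, CPM + 0.1, log axis) against the mean of the 3 controls (x axis, the same unit), with 1 point per member and a line of equality. In dTAG replicate 1 the points follow the line, and in dTAG replicate 3 all members lie between 16.0 and 113 CPM whatever their control level.

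The spread of levels over the members differed between libraries. In dTAG replicate 3 the 33 genes ranged from 16.0 CPM (Ankrd37) to 113 CPM (Egln1), a 7.03-fold range. In Control replicate 1 they ranged from 0.70 CPM (Car9) to 866 CPM (Slc2a3). In that dTAG library 23 members lay below the lowest control and 9 above the highest, beside 22.4% and 72.3% of all genes tested. Of the members in dTAG replicate 2, 21 were below and 8 above, beside 22.4% and 63.4% of all genes. Of the 30 members with at least 10 CPM in the controls, 23 were below and 6 above in dTAG replicate 3, beside 42.7% and 49.1% of such genes. In dTAG replicate 2 they were 21 and 5, beside 41.4% and 38.4%. The members' median log2 ratio of CPM + 1 to the control mean was -0.06, -0.21 and -0.97 in dTAG replicates 1, 2 and 3. Over all genes tested it was 0.06, 0.69 and 1.73. The latter medians include genes under 10 CPM in the controls. No median was taken for genes with at least 10 CPM alone, so the part of level in this gap was not tested.

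Comparing isozymes within a library removes the scaling between libraries. Shares here are of the raw counts of a step, not per length, so they are read across libraries and not as a ranking of the isozymes. Among the 9 steps with several member genes, the gene with the most counts in the control mean also had the most in 8 steps of dTAG replicate 1, 9 of dTAG replicate 2 and 5 of dTAG replicate 3. The genes with the most counts instead were Pdk3 in dTAG replicate 1, and Hk1, Pfkm, Eno2 and P4ha2 in dTAG replicate 3. Wilson intervals of 95% are given below and cover counting error only.

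The share of Eno1 in enolase counts was 99.1%, 95.4% and 30.2% in dTAG replicates 1, 2 and 3, against 98.7%, 98.9% and 99.0% in the controls. In dTAG replicate 3 the enolase step rested on 159 counts, and the interval of the Eno1 share was 23.6% to 37.7%. Hk2 took 76.9%, 71.2% and 42.0% of hexokinase counts in dTAG libraries, against 76.6%, 75.3% and 75.0% in the controls. For Aldoa the shares of aldolase counts were 98.3%, 96.1% and 76.8% in dTAG libraries and 98.2%, 97.0% and 97.1% in the controls. In these 3 steps dTAG replicate 1 was slightly above all controls and dTAG replicates 2 and 3 were below them. The Slc2a3 share of transporter counts was 74.6%, 71.6% and 60.6% in dTAG libraries, against 73.8%, 73.0% and 72.5% in the controls, in the same order. In all of these steps the interval of dTAG replicate 1 overlapped that of the highest control. For Hk2, Aldoa and Slc2a3 the interval of dTAG replicate 2 overlapped that of the lowest control.

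Of the 9 steps, only phosphofructokinase and collagen prolyl 4-hydroxylase had all dTAG shares on 1 side of all controls. Pfkp took 46.8%, 48.3% and 30.4% of phosphofructokinase counts in dTAG replicates 1, 2 and 3, against 52.0%, 50.5% and 50.0% in the controls. In dTAG replicate 1 the interval was 45.2% to 48.5% and met that of the lowest control, 48.5% to 51.5%, at its edge. P4ha1 took 57.3%, 57.2% and 46.9% of its step in dTAG libraries, against 60.6%, 62.9% and 65.8% in the controls. Its intervals were 54.5% to 60.1%, 50.1% to 64.1% and 38.0% to 56.1% in dTAG replicates 1, 2 and 3. The first 2 overlapped that of Control replicate 1, 58.0% to 63.1%, and the third lay below it. The group differences of Pfkp and P4ha1 each had an exact permutation p of 0.1, the smallest possible. After Benjamini-Hochberg adjustment over the 9 steps both were 0.45. The other 7 steps had exact permutation p-values of 0.3 to 0.9 and adjusted values of 0.64 to 0.9. Ldha held 79.4%, 81.9% and 71.4% of lactate dehydrogenase counts in dTAG libraries, against 77.2%, 79.0% and 81.2% in the controls, and overlapped with them.

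**Figure D3:**
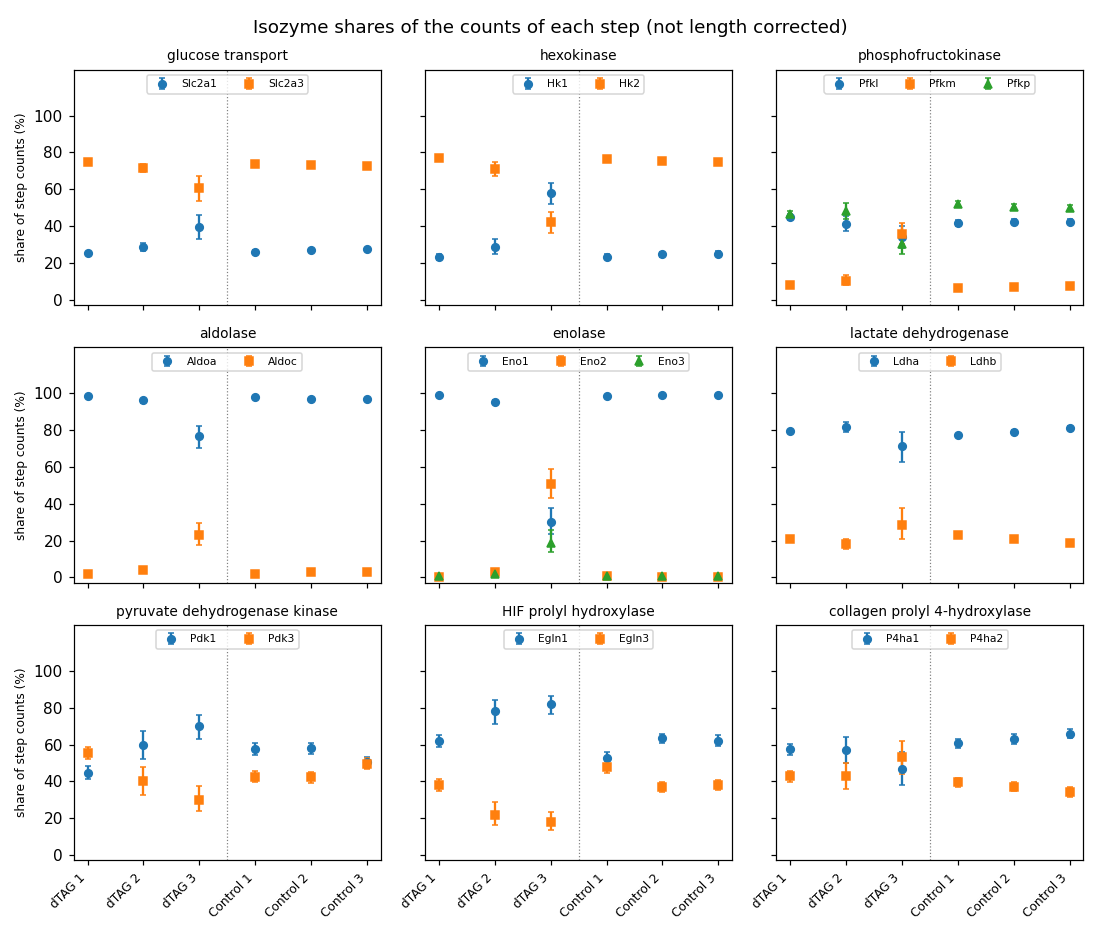
Share of each isozyme in the counts of its step (%, not length corrected) in the 3 dTAG and 3 Control libraries, with 95% Wilson intervals as bars. The controls and dTAG replicate 1 differ by a few points in most steps, while in dTAG replicate 3 Eno2 holds 50.9% of enolase counts and Hk1 58.0% of hexokinase counts.

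The pyruvate dehydrogenase kinases, which keep pyruvate out of mitochondrial oxidation, included a member with one of the smaller p-values in dTAG replicate 1. Pdk1, a known HIF target, had 29.1, 44.1 and 66.8 CPM in dTAG replicates 1, 2 and 3, against 40.4, 43.1 and 37.8 CPM in the controls. Pdk3, which is also induced by low oxygen, had 36.0, 29.6 and 28.7 CPM in dTAG libraries, against 29.8, 31.4 and 37.3 CPM in the controls. Pdk1 was lower than all controls in dTAG replicate 1 and above all of them in dTAG replicates 2 and 3. In dTAG replicate 1 its log2 fold change was -0.56 (SE 0.23, adjusted p = 0.706), and that of Pdk3 was 0.05 (SE 0.24, adjusted p = 0.999), which became -0.04 without Control replicate 1. The Pdk1 gene held 44.7% of the counts of the pair in dTAG replicate 1 (interval 41.4% to 48.1%), 59.9% and 69.9% in dTAG replicates 2 and 3, and 57.5%, 57.9% and 50.3% in the controls. Of the controls, replicate 3 lay closest to dTAG replicate 1. Over the 3 dTAG libraries the Pdk1 log2 fold change was -0.64 (SE 0.32, adjusted p = 0.282) with TMM scaling and 0.20 with plain library totals.

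Slc16a3 encodes the lactate exporter MCT4. It had 32.2, 41.3 and 66.8 CPM in dTAG replicates 1, 2 and 3, against 39.6, 47.5 and 47.1 CPM in the controls. Only dTAG replicate 1 was below all controls, with a log2 fold change of -0.56 (SE 0.23, adjusted p = 0.693). Over all dTAG libraries the log2 fold change was -0.77 (SE 0.35, adjusted p = 0.232) with TMM scaling and 0.06 with library totals. Reads of Slc16a3 cannot be told apart from those of the overlapping gene Csnk1d if strand was not used in counting. The same limit holds for Hk1, Pfkm, Pfkp, Tpi1, Eno3, Ankrd37 and Car9, making 8 members that overlap another gene in RefSeq.

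**Figure D4:**
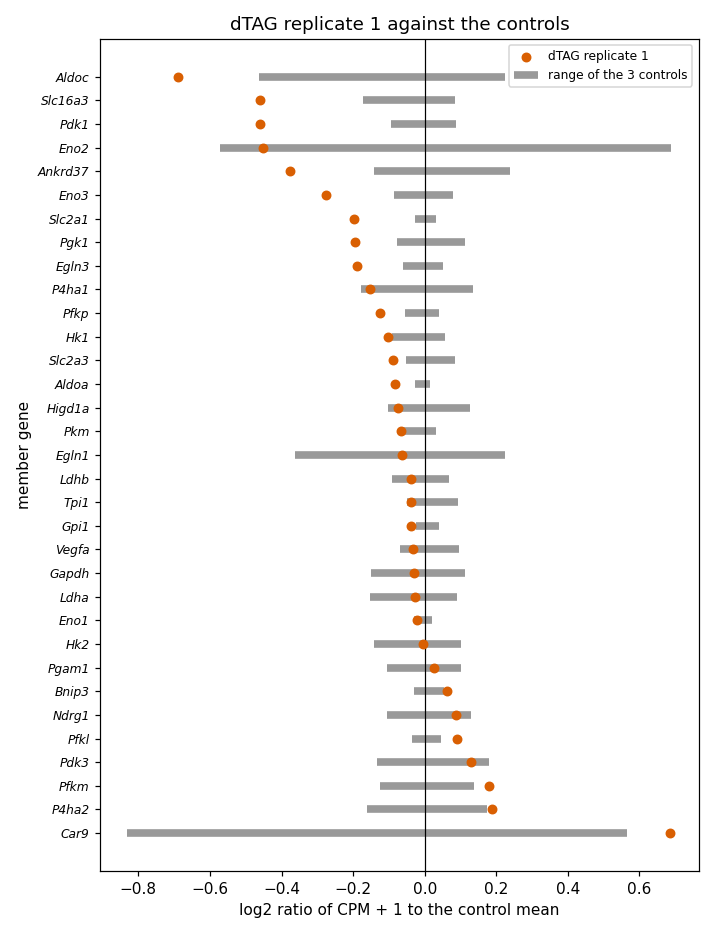
Log2 ratio of CPM + 1 of dTAG replicate 1 to the control mean for each member (points), beside the range of the 3 controls (grey bars). Aldoc, Slc16a3, Pdk1 and Ankrd37 are the points farthest below their bars, and Car9 is the point farthest to the right.

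Genes of the oxygen sensor itself split in dTAG replicates 2 and 3. Egln1, the main HIF prolyl hydroxylase, had 40.8, 57.2 and 113 CPM in dTAG replicates 1, 2 and 3, against 32.9, 50.0 and 44.99 CPM in the controls. Egln3, a hydroxylase that HIF itself induces, had 25.1, 16.0 and 24.8 CPM in dTAG libraries, against 29.8, 28.9 and 27.5 CPM in the controls. All dTAG values of Egln3 lay below the controls, whereas Egln1 lay within them in dTAG replicate 1 and above them in the others. Egln3 rested on 34 and 45 counts in dTAG replicates 2 and 3. The Egln3 log2 fold change was -1.0 over the 3 dTAG libraries (SE 0.45, adjusted p = 0.232) and -0.28 in dTAG replicate 1 (SE 0.26, adjusted p = 0.985). Egln1 held 61.9%, 78.2% and 81.9% of the counts of the pair in dTAG libraries, against 52.5%, 63.3% and 62.0% in the controls.

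Vegfa, Bnip3 and Ankrd37 are HIF targets of different function, and Ankrd37 was lower in every dTAG library than in every control. Vegfa, the vascular growth factor, had 119.9, 103 and 94.9 CPM in dTAG replicates 1, 2 and 3, against 131, 120.0 and 117 CPM in the controls. Bnip3, a receptor for the removal of mitochondria, had 49.4, 27.2 and 23.2 CPM in dTAG libraries, against 46.3, 49.1 and 46.5 CPM in the controls. Ankrd37, an ankyrin repeat protein gene, had 14.0, 9.85 and 16.0 CPM in dTAG libraries, against 22.0, 16.8 and 16.7 CPM in the controls. Bnip3 was therefore low in dTAG replicates 2 and 3 only, while Ankrd37 was below all controls in each dTAG library. Ankrd37 rested on 21 and 29 counts in dTAG replicates 2 and 3. In dTAG replicate 3 it lay below the lowest control by less than the controls' own range. The Ankrd37 log2 fold change over the 3 dTAG libraries was -1.12 (SE 0.45, adjusted p = 0.182), and in dTAG replicate 1 it was -0.48 (SE 0.33, adjusted p = 0.973).

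P4ha1 and P4ha2 encode the catalytic subunits of collagen prolyl 4-hydroxylase, which stabilises the collagen helix. P4ha1 had 52.5, 50.2 and 29.2 CPM in dTAG replicates 1, 2 and 3, against 59.5, 51.5 and 64.3 CPM in the controls. P4ha2 had 39.0, 37.5 and 33.1 CPM in dTAG libraries, against 38.7, 30.4 and 33.4 CPM in the controls. P4ha1 overlapped with the controls in dTAG replicate 1 alone. P4ha2 in dTAG replicate 1 had a log2 fold change of 0.11 (SE 0.23, adjusted p = 0.994). Ndrg1, a stress response gene, had 44.0, 46.4 and 29.8 CPM in dTAG libraries, against 38.4, 45.4 and 40.3 CPM in the controls. Higd1a, a mitochondrial inner membrane protein gene, had 38.3, 36.6 and 29.2 CPM in dTAG libraries, against 44.2, 37.6 and 39.5 CPM in the controls. In both genes dTAG replicate 1 lay within the controls and dTAG replicate 3 below them.

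Car9, encoding a carbonic anhydrase at the cell surface that is strongly induced by HIF, was the member with the lowest control level. Its values ran from 1.86 CPM in dTAG replicate 1 to 61.8 CPM in dTAG replicate 3, and from 0 to 1.63 CPM in the controls. A count of 0, as in Control replicate 2, allows up to 0.192 CPM (3 counts) there. The groups did not overlap, but dTAG replicate 1 exceeded the highest control by less than the controls' own range. The log2 fold change was 3.57 over the 3 dTAG libraries (SE 1.39, adjusted p = 0.171) and 1.18 in dTAG replicate 1 (SE 1.55, adjusted p = 0.992). The value in dTAG replicate 1 was 0.60 without Control replicate 2, 2.36 without Control replicate 3 and 2.46 with limma-voom, none of them past the threshold. The 3-library value was 2.27 without dTAG replicate 3 (adjusted p = 0.518). In DESeq2 it was 3.62 with an adjusted p of 0.0421, and that of dTAG replicate 1 was 1.19 (SE 1.79). Among all libraries Car9 passed the filter on low counts only through the dTAG libraries. Its 3-library p-values thus rest on the values that admitted it to the test. Tissue genes that embryonic stem cells are not known to use moved with it, since 4 hepatocyte markers summed to 1.32, 32.4 and 116 CPM in dTAG replicates 1, 2 and 3 and to 1.15 to 2.7 CPM in the controls. Ttr and Serpina1a were at 0 in dTAG replicate 1 and in Control replicates 1 and 2. The part of these genes in the Car9 values was not tested.

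**Figure D5:**
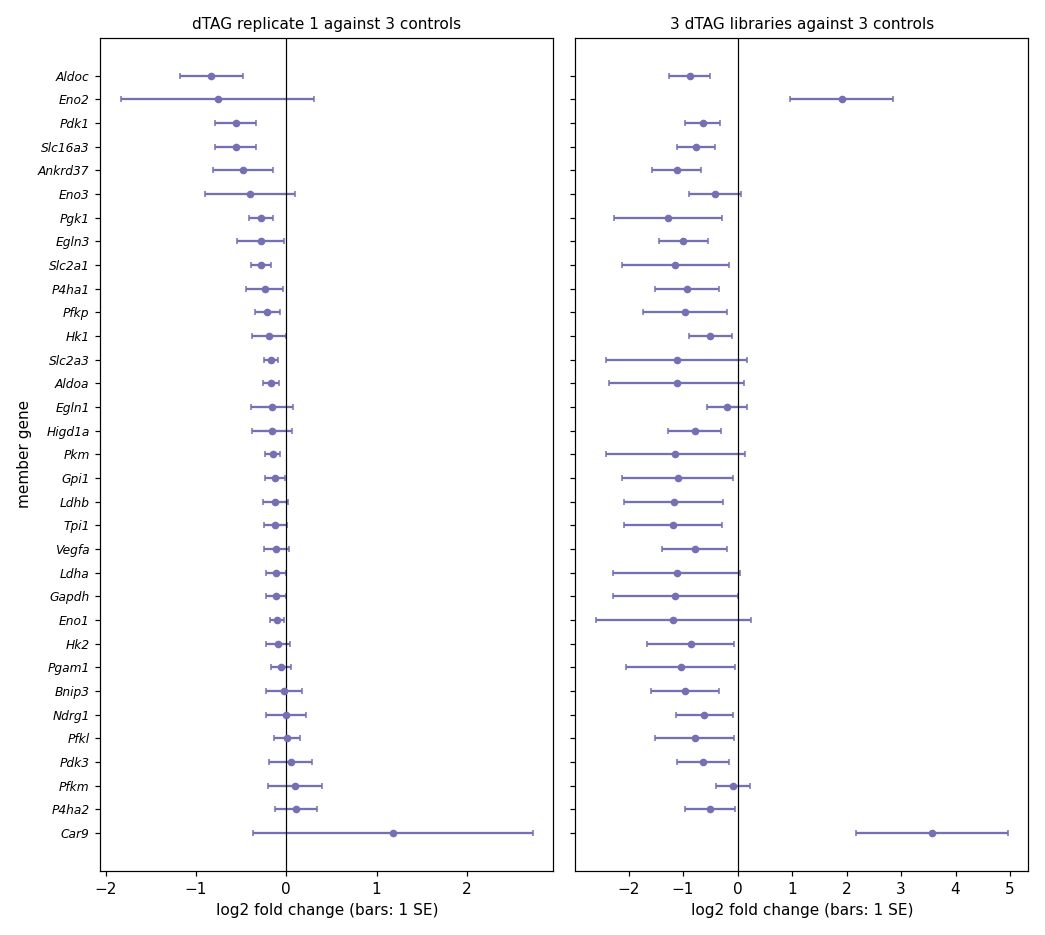
Log2 fold change of each member in dTAG replicate 1 against the 3 controls (left) and in the 3 dTAG libraries against the 3 controls (right), with bars of 1 SE. Most values on the left lie just below 0 with short bars, whereas on the right most lie near -1 with longer bars, some of which reach 0.

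Without dTAG replicate 1 the comparison rested on the 2 shallow libraries, and members were then called. In that edgeR fit 8839 of 22093 genes were higher (40%) and 4383 lower (19.8%), with 2 members higher and 13 lower. The higher ones were Car9, by 3.76 on the log2 scale (SE 1.01, adjusted p = 0.00882), and Eno2, by 2.15 (SE 0.63, adjusted p = 0.0133). In the fit of all libraries Car9 had passed the filter on low counts only through the dTAG libraries, so its call is no separate support. The lower ones with the largest log2 fold changes were Tpi1 at -2.64 (SE 0.89, adjusted p = 0.0243), Ldhb at -2.60 (SE 0.88, adjusted p = 0.0251) and Bnip3 at -2.21 (SE 0.48, adjusted p = 0.00339). Pdk1 (-0.97) and Slc16a3 (-1.18) were among the called. In plain CPM, however, Pdk1 lay above all controls in both of these dTAG libraries. Slc16a3 and Aldoc did so in dTAG replicate 3, and Ndrg1 in dTAG replicate 2. P4ha2, also called lower, lay within the range of the controls in both. The others were Ankrd37, Egln3, P4ha1, Higd1a, Pdk3, Ndrg1, P4ha2 and Aldoc, from -1.97 to -1.20.

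Branches and regulators of the pathway gave no call in either fit. The 7 pentose phosphate genes, which make NADPH and ribose, had a median log2 fold change of -0.73 over the 3 dTAG libraries and -0.09 in dTAG replicate 1, where the medians of all genes were 0.16 and -0.02. Transketolase, encoded by Tkt, had 147, 146 and 96.6 CPM in dTAG replicates 1, 2 and 3, against 159, 136 and 148 CPM in the controls. Taldo1, the transaldolase gene, had 112, 69.9 and 56.8 CPM in dTAG libraries, against 106, 93.7 and 95.9 CPM in the controls. Rpe, encoding ribulose-phosphate epimerase, had the list's smallest p in dTAG replicate 1, with a log2 fold change of -0.44 (SE 0.27, adjusted p = 0.973). The 11 genes of pyruvate dehydrogenase and its regulators had medians of -0.66 and -0.16 in the same comparisons. Pdha1, a subunit gene of the complex, had 88.8, 76.0 and 26.5 CPM in dTAG replicates 1, 2 and 3, against 95.3, 94.8 and 90.3 CPM in the controls, all dTAG values being lower. Pdp2, a phosphatase that activates the complex, had 52.8, 48.3 and 46.9 CPM in dTAG libraries, against 65.7, 50.1 and 55.1 CPM in the controls. In CPM, 23.9% of all genes tested had every dTAG library above every control. Among the regulators Pdk4, a kinase of the fasting response, had 11.7, 38.0 and 109 CPM in dTAG libraries, against 3.30, 3.00 and 4.40 CPM in the controls. Its groups did not overlap, with a log2 fold change of 1.63 in dTAG replicate 1 (SE 0.51, adjusted p = 0.505).

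The 5 PFKFB and TIGAR genes set the level of the activator of phosphofructokinase and had medians of 0.27 and -0.10. Of these, Pfkfb4 had 9.61, 18.8 and 59.0 CPM in dTAG replicates 1, 2 and 3, against 3.30, 3.26 and 2.55 CPM in the controls. It was higher in each dTAG library than in any control, with a log2 fold change of 1.57 in dTAG replicate 1 (SE 0.56, adjusted p = 0.636). As stated for Pdk4, 23.9% of all genes tested had every dTAG library above every control. Tigar had 53.5, 38.9 and 46.9 CPM in dTAG libraries, against 26.5, 39.5 and 42.2 CPM in the controls, and its groups overlapped. Pfkfb3 had 29.4, 71.8 and 172 CPM in dTAG libraries, against 33.6, 35.6 and 38.5 CPM in the controls, and lay below the controls in dTAG replicate 1 and above them in the others.

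For other lists with genes that passed the filter on low counts only through the dTAG libraries no median is given. The medians given for the members include Car9, which passed that way in the fit of all libraries. Of 7 gluconeogenesis genes 5 were tested, 1 of them (Pck1) through the dTAG libraries only. Pck1, which encodes a cytosolic enzyme of gluconeogenesis, had 2.63, 3.28 and 34.8 CPM in dTAG replicates 1, 2 and 3, against 0.07, 0.77 and 0.21 CPM in the controls. Its log2 fold change in dTAG replicate 1 was 2.76 (SE 1.56). Pck2, its mitochondrial counterpart, had 14.2, 28.1 and 40.3 CPM in dTAG libraries, against 21.5, 12.3 and 16.6 CPM in the controls. Fbp2, a fructose-bisphosphatase gene, had 11.8, 11.7 and 11.04 CPM in dTAG libraries, against 15.0, 11.4 and 10.4 CPM in the controls, within whose range all dTAG values lay. Of 19 paralogues that other tissues use, 12 were tested, 7 of them through the dTAG libraries only. Hk3, named outside the fixed rule as an example of these 7, had 70.1 CPM in dTAG replicate 3 and at most 0.43 CPM in the controls. Bpgm, which makes the regulator of oxygen release in red cells, had 4.88, 7.51 and 16.0 CPM in dTAG libraries, against 8.85, 6.77 and 6.88 CPM in the controls. Among the paralogues Slc16a1, encoding the lactate transporter MCT1, had 56.8, 74.6 and 56.8 CPM in dTAG libraries, against 92.5, 71.0 and 69.8 CPM in the controls. Its log2 fold change in dTAG replicate 1 was -0.53 (SE 0.18, adjusted p = 0.588), and dTAG replicate 2 lay within the controls.

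The HIF subunits and their controllers (15 genes in the table, all tested) had medians of -0.65 over the 3 dTAG libraries and -0.17 in dTAG replicate 1, where 11 were below 0. Crebbp and Ep300, the coactivators that HIF recruits, were the list's highest in control mean CPM. Crebbp had 169.7, 152 and 135 CPM in dTAG replicates 1, 2 and 3, against 202, 158 and 178 CPM in the controls, with dTAG replicate 1 within their range. Ep300 had 154, 176 and 102 CPM in dTAG replicates 1, 2 and 3, against 201, 167 and 162 CPM in the controls, with a log2 fold change of -0.28 in dTAG replicate 1 (SE 0.13, adjusted p = 0.829). The oxygen-regulated subunit gene Hif1a, named outside the fixed rule after its values were seen, had 115, 104 and 96.6 CPM in dTAG libraries, against 109, 106 and 110.1 CPM in the controls. In plain CPM it lay above all controls in dTAG replicate 1 and below all of them in dTAG replicates 2 and 3. Its adjusted p in edgeR was 0.475 over the 3 dTAG libraries. Of 24 other hypoxia response genes 23 were tested, 2 of them (Adm and Lox) through the dTAG libraries only. Tfrc, the transferrin receptor gene, had 277, 169 and 30.3 CPM in dTAG libraries, against 286, 234 and 259 CPM in the controls, with dTAG replicate 1 within their range. Cited2, a HIF-induced inhibitor of HIF coactivation, had 2587, 133 and 43.6 CPM in dTAG libraries, against 2461, 2917 and 3060 CPM in the controls. Cited2 in dTAG replicate 1 thus lay within the controls' range, with a log2 fold change of -0.21 (SE 0.08, adjusted p = 0.673), and the other dTAG libraries lay far below.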

How the data were processed

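RNA-seq libraries were grouped by their titles. The table that the authors deposited has 27179 rows of raw gene counts (whole numbers). STAR 2.7.2b, featureCounts, edgeR, limma and build mm10 are named in the submitters' processing notes, without settings, annotation or use of strand. Per the labels' protocols, column-purified RNA received ERCC spike-ins and went into stranded, paired-end libraries, described as ribosome-depleted but made with a kit for messenger RNA. The table held 0 ERCC rows. The 903 rows without a name (shares in the report) entered neither library sizes nor tests.

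The two-sided test was edgeR 4.0.16 (glmQLFit, glmQLFTest, R 4.3.3) with TMM and filterByExpr (minimum count 10, minimum total 15). It was fitted on all genes, with Benjamini-Hochberg adjustment at 0.05. The code was also run on simulated data. The simulated libraries had equal depth and less spread than the real ones, so that run does not cover the conditions of these data. All 33 members passed the filter in both fits. SEs came from the fold change and F statistic. Alternatives were RLE scaling, library totals, other filters, DESeq2 1.42.0, limma-voom 3.58.1, a replicate block, a threshold of 0.01 and left-out libraries. Exact permutation tests used scipy 1.17.1. Isozyme shares were planned per length, but without transcript lengths raw counts were used, a choice made after seeing the files, as was the TMM-scaled sum of the hypoxia genes.

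TMM factors were 0.789, 1.23 and 2.31 for dTAG replicates 1, 2 and 3 and 0.742 to 0.805 for the controls, and a count of 0 allows (3 counts) 0.232, 1.41 and 1.66 CPM in these dTAG libraries and 0.192 to 0.213 CPM in the controls. No pair of libraries was alike within counting noise (smallest chi-square per gene 9.49). H2afz RNA was not used to check the labels, since dTAG acts on the protein. Members and lists were chosen with earlier results of these data known. Genes that could be named were all members, the 5 smallest p per direction and fit, and from other lists the 2 highest in control mean CPM and the smallest p in dTAG replicate 1. From the other pathway lists Hif1a, Hk3, Adm and Lox were named outside this rule.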

Additional observations from a re-analysis of the deposited data

Results flagged for a closer look

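Rows without a gene name, which entered no comparison of the members, took 6.67% of the counts in dTAG replicate 2 and 14.6% in dTAG replicate 3, above the highest control at 2.37%. The share in dTAG replicate 1 was 2.33%, within the range of the controls. Groups of 3 libraries are too small for a test of single outlying values.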

How the results depend on the processing

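Of 188 alternative values run for single named members, 173 kept their direction and their side of the threshold. For the 3 dTAG against the 3 Control libraries, genes called numbered 0 as reported, 1398 with no filter on low counts, 3205 with DESeq2, 13 with the replicate block, 0 to 13222 when 1 library was left out, and 16 without dTAG replicates 2 and 3. Members called numbered 1 with DESeq2 (Car9) and 0 to 15 with 1 library left out, the 15 being without dTAG replicate 1. Car9 had passed the filter on low counts only through the dTAG libraries. The median member log2 fold change was -0.93 as reported, -0.41 with library totals, -0.54 to -1.77 with 1 library left out and -0.15 without dTAG replicates 2 and 3. Reversed values were Slc16a3 at 0.06 and Pdk1 at 0.20 with library totals, and Eno2 at -0.76 without dTAG replicates 2 and 3. For dTAG replicate 1, genes called numbered 16 as reported, 41 with no filter, 5 with limma-voom and 20 to 60 with 1 control left out (60 without Control replicate 1), with 0 members under each. Its median was -0.06 with library totals. Pfkl reversed to -0.003 with no filter and -0.01 with a 1 CPM filter. With 1 control left out Pfkl ranged from -0.03 to 0.04 and Pdk3 from -0.04 to 0.16, both lowest without Control replicate 1. The summed level of the 20 transporter and enzyme genes in dTAG libraries was 59.6% of the control mean, 46.7% with TMM scaling, 57.0% with Rn45s and mitochondrial genes left out, 41.4% to 81.8% with 1 library left out and 95.9% without dTAG replicates 2 and 3. Apart from the left-out libraries, the cause of these differences was not tested.

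The deviations of libraries with the same replicate number from their group means correlated at 0.052, -0.017 and 0.025. Other pairings of dTAG with Control libraries ranged from -0.049 to 0.029. The dTAG libraries differed more from one another (chi-square per gene 51.9 to 280) than the controls did (9.49 to 24.1), which can hide a shared batch. Whether the numbers pair the libraries therefore cannot be told from these correlations. The replicate block called 13 genes and 0 members. With counts of 159 for enolase in dTAG replicate 3, depth limits every share in that library. Levels are relative to library totals.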
